A study of Mus musculus with 15 samples.

Results

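The miR-192, miR-194 and miR-215 group consists of 5 mature microRNAs (miRNAs), mmu-miR-192-5p, mmu-miR-192-3p, mmu-miR-194-5p, mmu-miR-215-5p and mmu-miR-215-3p (written below without mmu, for mouse), cut from hairpins that lie in 2 clusters of the mouse genome. They were chosen by name, and each had 1 row among the 1205 rows of the deposited table of miRNA read counts. Small RNA libraries had been made from 100 ng of RNA from the platelet-free plasma of male wild-type C57BL/6J mice, drawn 24 h after surgery. In 9 libraries the operation was cecal ligation and puncture (CLP), in which the ligated cecum is pierced so that gut bacteria leak into the abdomen (a model of polymicrobial sepsis), and in 6 libraries it was a sham operation. The labels do not say that each library is a separate animal, so the p-values measure the spread between these libraries, which may be partly technical.

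A miRNA is an RNA of about the length of a short oligonucleotide that guides Argonaute proteins to messenger RNAs, mainly through its seed, bases 2 to 8. A hairpin precursor is cut into a duplex, and the 5p or the 3p strand, named for the side of the hairpin it comes from, is kept while the partner is mostly degraded. The miR-192 and miR-194 genes are known as markers of liver, intestinal epithelium and kidney, where hepatocyte nuclear factors drive them, and miR-192, miR-194 and miR-215 are also known targets of p53. In plasma they are read as traces of RNA released from such tissues.

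The sequences below (RefSeq, GRCm38.p6, printed 5′ to 3′ with the seed in capitals) show which members share a seed and which reads could come from more than 1 gene. All 5 members matched the sequence table.
miR-192-5p: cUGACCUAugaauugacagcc
miR-215-5p: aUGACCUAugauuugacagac
miR-194-5p: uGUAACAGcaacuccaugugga
miR-192-3p: cUGCCAAUuccauaggucacag
miR-215-3p: uCUGUCAUucuguaggccaau
miR-194-1-3p: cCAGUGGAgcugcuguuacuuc
miR-194-2-3p: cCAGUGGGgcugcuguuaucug
The 5p strands of miR-192 and miR-215 share their seed and were the only 2 entries of the sequence table that hold it. Aligned from base 1 at the 5′ end they were identical at 18 of 21 bases and differed by C1A, A12U and C20A (miR-192-5p base first). Their 3p strands do not share a seed and matched at 10 of 21 bases. The mature miR-194-5p is the same from both of its genes, so its reads cannot be assigned to 1 cluster. The 3p strands of the 2 miR-194 hairpins, which are not among the 5 members, differ by 4 substitutions (A8G, C19U, U20C and C22G) and can be.

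In the chromosome 1 cluster, Mir194-1 (chr1:185313319-185313385, plus strand, GRCm38, the assembly also called mm10) is followed after 195 bases by Mir215 (chr1:185313581-185313692). Mir215 lies in an exon, and Mir194-1 in an intron, of the noncoding transcript 2010103J01Rik on the same strand, and the pair sits in an intron of Iars2, a mitochondrial isoleucyl-tRNA synthetase gene on the opposite strand (GENCODE M21). In the chromosome 19 cluster, Mir194-2 (chr19:6264643-6264728, plus strand) is followed after 115 bases by Mir192 (chr19:6264844-6264932). That cluster overlaps no other annotated gene and begins 2308 bases past the end of Atg2a, an autophagy gene. The hairpins of the shared-seed pair are given with their mature arms in capitals, to show where each counted strand lies.
Mir192: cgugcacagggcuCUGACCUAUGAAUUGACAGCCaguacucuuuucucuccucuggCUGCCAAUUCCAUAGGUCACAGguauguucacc
Mir215: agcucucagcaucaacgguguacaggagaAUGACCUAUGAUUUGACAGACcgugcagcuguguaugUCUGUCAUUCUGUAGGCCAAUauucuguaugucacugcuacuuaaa

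**Figure D1:**
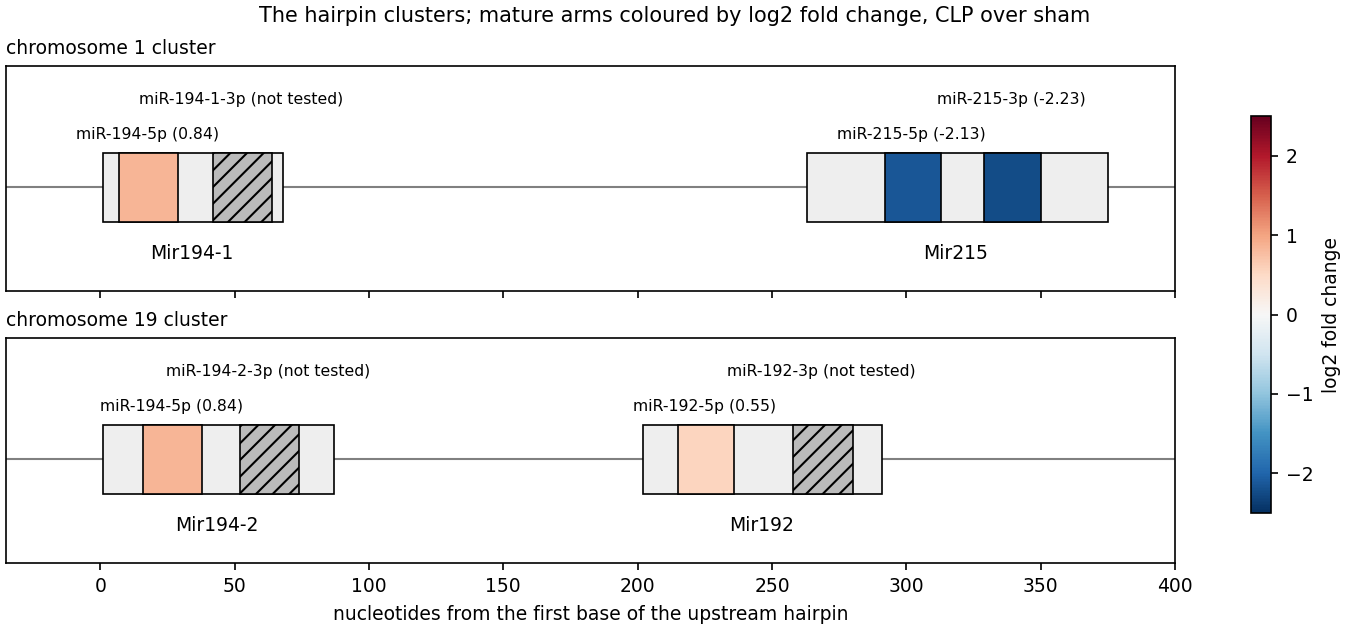
Map of the chromosome 1 and chromosome 19 clusters, drawn to scale in nucleotides from the first base of the upstream hairpin; boxes are hairpins, coloured blocks the mature arms, and colour and number the log2 fold change, CLP over sham. Both arms of Mir215 are blue, at -2.13 and -2.23, beside miR-194-5p at 0.84 and miR-192-5p at 0.55; hatched arms were too rare to test.

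Library totals ran from 6181056 to 13576482 counts in CLP libraries and from 5274676 to 10702028 in sham libraries. Levels are given in CPM, the usual depth-scaled unit of counts, with library totals adjusted by TMM scaling so that most miRNAs keep their level. No member held a fractional count in any library, whereas 156 rows of the table did, as can arise when reads are shared between similar miRNAs; whole counts do not show that no reads were shared. Of the 426 miRNAs abundant enough to test, 201 (47.2%) differed between CLP and sham in edgeR's quasi-likelihood test at a Benjamini-Hochberg adjusted p under 0.05, and 108 of them (25.4% of those tested) were higher and 93 (21.8%) lower in CLP. Scaled by library size alone the split was 90 higher and 126 lower, and the median log2 fold change of all tested miRNAs moved by -0.23 from 0.11. Against that background 4 of the 5 members were tested, of which 1 was higher and 2 were lower in CLP.

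The miR-215 strands were the members that changed most. Of miR-215-5p, CLP libraries held 522 CPM at the lowest, 934 at the median and 2232 at the highest, against 4273, 5448 and 6074 CPM in sham libraries. All 9 CLP libraries lay below all 6 sham libraries, and the lowest sham library (sham 6) exceeded the highest CLP library (CLP 7). Among all tested miRNAs, every CLP library was below every sham library for 11.3%, and above every sham library for 8.45%, the second of which held for no member. Levels here are shares of a library made from 100 ng of RNA, not amounts per volume of plasma. A smaller share, a smaller amount in plasma, fewer releasing cells and less RNA per cell cannot be told apart. The mean was 1225 ± 631 CPM in CLP (SD, n = 9) and 5354 ± 628 CPM in sham (n = 6), and miR-215-5p fell by 2.13 ± 0.30 on the log2 scale (SE), a level 4.37-fold higher in sham (edgeR adjusted p = 1.37e-05). Of the 426 tested miRNAs, 31 (7.28%) had a log2 fold change of -2 or lower, miR-215-5p and miR-215-3p among them.

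The other strand of the same hairpin, miR-215-3p, was scarcer and moved alike. CLP libraries held 8.80, 21.8 and 35.5 CPM at the lowest, median and highest, against 85.1 CPM at the lowest and 96.0 CPM at the median of the sham libraries, whose highest (sham 1) stood at 6.93 log2 CPM, again with no overlap. The means were 21.0 ± 9.34 CPM in CLP (SD, n = 9) and 98.4 ± 12.2 CPM in sham (n = 6), a log2 fold change of -2.23 ± 0.27 (SE, edgeR adjusted p = 3.11e-06). Within the CLP libraries the levels of miR-215-5p and miR-215-3p spread 4.28-fold and 4.04-fold between the highest and lowest library, and within sham 1.42-fold and 1.43-fold. CLP 1 and CLP 6 were the lowest libraries for both strands. The falls were called under all 27 alternatives tried, with log2 fold changes between -2.62 and -2.07 for miR-215-5p and between -2.53 and -2.15 for miR-215-3p.

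The abundant member, miR-192-5p, did not fall with its seed partner. It ranked 7 in CLP and 8 in sham by mean level among all rows. CLP libraries held 12317, 32735 and 67369 CPM at the lowest, median and highest, against 19523, 23194 and 31446 CPM in sham libraries. The groups overlapped: 5 of 9 CLP libraries (CLP 1, 2, 5, 7 and 8) lay above every sham library, 1 (CLP 6) lay below every sham library and the other 3 lay within the sham range. The log2 fold change was 0.55 ± 0.29 (SE, edgeR adjusted p = 0.122), which missed the threshold. It also missed it under each of 27 alternatives, with values from 0.26 to 0.65. The spread between the highest and lowest library was 5.47-fold in CLP and 1.61-fold in sham.

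For miR-194-5p, encoded in both clusters, the CLP libraries held 72.8, 118 and 369 CPM at the lowest, median and highest, against 44.3, 73.5 and 131 CPM in sham libraries. Of the 9 CLP libraries, CLP 1, 8 and 9 lay above every sham library and none lay below, and CLP 1, the highest, was far from the other 8, which ended at 152 CPM. The log2 fold change was 0.84 ± 0.33 (SE, edgeR adjusted p = 0.0423), so the miRNA rose by this test, but the call was lost on leaving out any 1 of 11 libraries (CLP 1, 2, 5, 7, 8 or 9, or sham 1, 2, 3, 4 or 6). Over its 27 alternatives the adjusted p ran from 0.00753 to 0.176. Without CLP 1 the value was 0.49 (edgeR adjusted p = 0.0998), and without sham 4 it was 0.63 (0.115).

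The rarest member was miR-192-3p, which the abundance filter left out of the test. It was read 34 times in all 9 CLP libraries together and 48 times in the 6 sham libraries, with 2 CLP libraries and 1 sham library at 0. In CLP libraries the counts ran up to 14 reads (CLP 5), and in sham libraries up to 17 (sham 3). A count of 0 still allows up to 0.485 CPM in CLP 2, 0.455 CPM in CLP 9 and 0.477 CPM in sham 1 (3 counts of the library total, counting error only). The level was at most 1.23 CPM in CLP and 2.60 CPM in sham, and a difference was not detectable at this depth: with the filter lifted, the log2 fold change was -1.38 (edgeR adjusted p = 0.165).

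**Figure D2:**
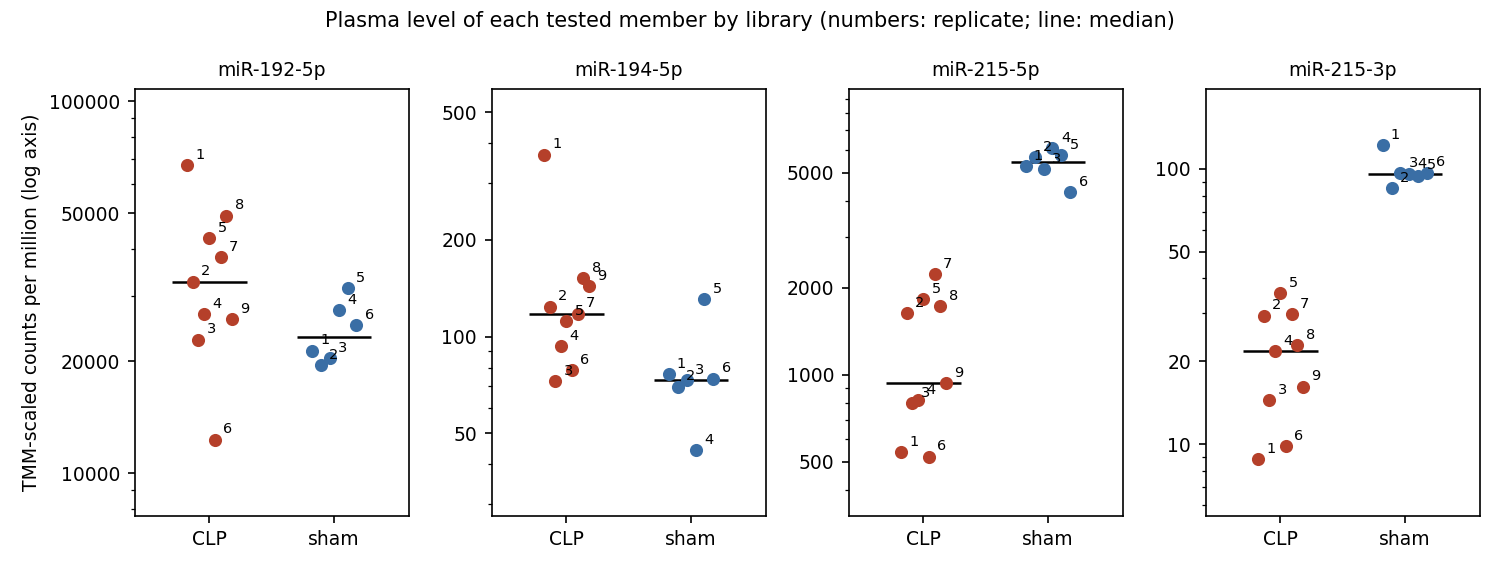
TMM-scaled CPM on a log axis (range set per panel) for the 4 tested members, with 1 point per library, 9 CLP and 6 sham, numbered by replicate, and a line at the median. For miR-215-5p and miR-215-3p all CLP points lie below all sham points, while those of miR-192-5p and miR-194-5p overlap, with CLP 1 the highest point of both.

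The order of the members by level was therefore not the same in the groups. In CLP libraries miR-192-5p stood first, then miR-215-5p, miR-194-5p, miR-215-3p and miR-192-3p, with no overlap in CPM between neighbours. In sham libraries miR-192-5p and miR-215-5p also stood first and second without overlap, but miR-215-3p and miR-194-5p overlapped, and miR-192-3p was last. The strands are 21 or 22 bases long, so these levels need no length correction, although adapter ligation can favour some ends. The 5 members together took a median of 3.07% of the library (1.31% to 6.26%) in CLP and 3.05% (2.70% to 4.17%) in sham. Within that sum miR-192-5p made up 96.0% ± 1.30 (SD, n = 9) in CLP and 81.1% ± 2.99 (n = 6) in sham.

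Ratios within a library do not depend on how libraries are scaled, so they compare the members directly. For 9 ratios, between miRNAs chosen with earlier results of these data known, the difference in mean log2 ratio was tested. The test was an exact two-sided permutation over the 5005 ways to divide the libraries, where the smallest p is 0.0002, with adjustment over the 9. Ratios that share miR-215-5p are not independent of each other or of its fall, so they are not separate support for it. miR-192-5p outnumbered its seed partner miR-215-5p by 17.1 to 125-fold in CLP libraries (median 27.8) and by 3.46 to 5.86-fold in sham libraries (median 4.29). All 9 CLP libraries were above all 6 sham libraries. The mean log2 ratio was 4.89 ± 0.83 in CLP (SD, n = 9) and 2.16 ± 0.29 in sham (n = 6), a difference of 2.73 or 6.61-fold (exact permutation p = 0.0002, adjusted 0.000899), and it was 2.47 without CLP 1.

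Put as a share, miR-215-5p supplied 0.796% to 5.54% of the reads that carry the shared UGACCUA seed in CLP libraries (median 3.47%), against 14.6% to 22.4% in sham libraries (median 18.9%). In CLP 1, the lowest, the share was 0.796% (95% Wilson interval 0.768% to 0.824%), and the widest such interval in any library was 0.385 percentage points, for counting error only. The reads of this seed, miR-192-5p and miR-215-5p summed, came to a median of 34371 CPM in CLP (12838 to 67909) and 27956 CPM in sham (25165 to 37181), so the groups overlapped in the sum while they did not in the share.

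Ratios between cluster neighbours were compared next. On chromosome 1, the log2 ratio of miR-215-5p to miR-194-5p was 3.12 ± 1.10 in CLP (SD, n = 9) and 6.16 ± 0.55 in sham (n = 6), with no overlap, a difference of -3.05 (exact permutation p = 0.0002, adjusted 0.000899). On chromosome 19, the log2 ratio of miR-192-5p to miR-194-5p was 8.0 ± 0.46 in CLP and 8.32 ± 0.49 in sham, a difference of -0.32 that did not pass (exact permutation p = 0.220, adjusted 0.390). Since reads of miR-194-5p from the clusters are identical, neither ratio is that of 1 transcript. Reads of the miR-194 3p strands, which can be told apart, were few: in CLP libraries there were 16 reads of miR-194-1-3p from chromosome 1 and 45 of miR-194-2-3p from chromosome 19, and in sham libraries 16 and 19. In single libraries they numbered 0 to 14, and neither strand was tested.

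Between the strands of the miR-215 hairpin no shift was found. The log2 ratio of miR-215-5p to miR-215-3p was 5.83 ± 0.30 in CLP (SD, n = 9) and 5.76 ± 0.27 in sham (n = 6), a difference of 0.06 (exact permutation p = 0.700, adjusted 0.813). In a limma fit over the 93 hairpins whose arms were both tested, the arm ratio of miR-215 differed by 0.06 ± 0.19 (SE, limma adjusted p = 0.831), with a 95% interval from 0.787-fold to 1.38-fold. In that fit the arm ratio of 48 hairpins (51.6%) differed between CLP and sham, 25 toward the 5p and 23 toward the 3p strand, and 6 hairpins had a smaller shift than miR-215. For miR-192 the 3p reads were too few for this fit. Its log2 arm ratio was 16.7 ± 1.22 in CLP and 15.0 ± 1.79 in sham, and the difference of 1.68 did not pass (exact permutation p = 0.0436, adjusted 0.0980). The log2 ratio of miR-192-3p to miR-215-3p was -5.96 ± 1.59 in CLP and -7.06 ± 1.98 in sham and did not pass either (difference 1.10, exact permutation p = 0.260, adjusted 0.390; 0.36 without sham 1). With a pseudocount of 5 in place of 0.5 counts both of these ratios passed (adjusted p = 0.00405 and 0.00360), and the first also passed without sham 1 (2.33, adjusted p = 0.0150), so both depend on how counts near 0 are treated.

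**Figure D3:**
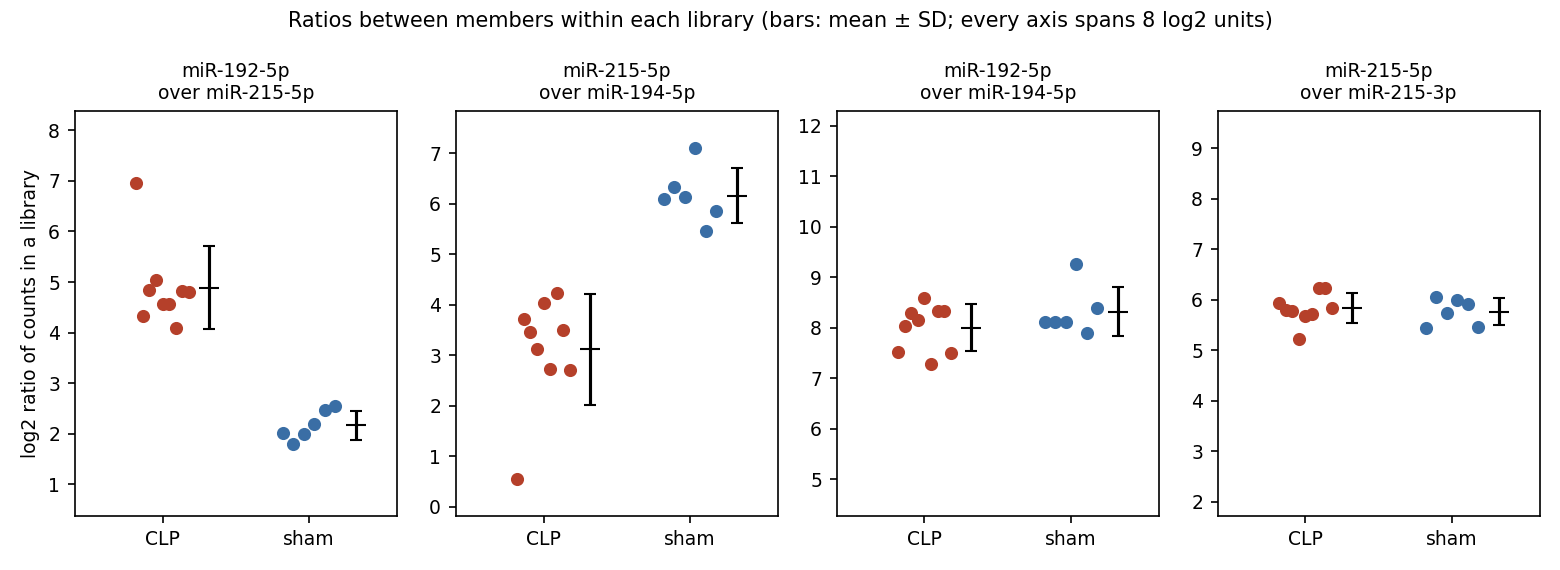
The log2 ratio of counts of named member pairs within each library, 9 CLP and 6 sham, with bars at the mean ± SD and every axis spanning 8 log2 units. The groups separate in both ratios that set miR-215-5p against a 5p strand of another hairpin, and overlap in miR-192-5p over miR-194-5p and in the miR-215 arm ratio.

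Tissues in which these miRNAs are known to be made were followed through lists of other miRNAs. The counts of each list are to be read against all 426 tested miRNAs, of which 25.4% were higher and 21.8% lower in CLP. Of the hepatocyte list, 5 of 6 names had a row and 4 were tested, and 1 rose and none fell, with a median log2 fold change of 1.21 where that of all tested miRNAs was 0.11. That median rested on CLP 1: without this library it was 0.28, with miR-122-5p at 0.35, miR-802-5p at 0.22 and miR-122-3p at -0.91, and by limma voom with all libraries it was 0.24. The list miRNA that rose was miR-193a-3p (1.49 ± 0.36, edgeR adjusted p = 0.00246). It was scarce, at 2.99 to 13.3 CPM in CLP and 1.33 to 5.52 CPM in sham. A stricter abundance filter left it out, with 1 miRNA of the list tested and 0 called higher. The liver's most abundant miRNA, miR-122-5p, ran at 1871, 7125 and 79178 CPM at the lowest, median and highest CLP library, against 2955, 4875 and 14605 CPM in sham, and did not pass (1.39 ± 0.76, edgeR adjusted p = 0.139). CLP 1 was the highest library for miR-122-5p, miR-802-5p (55.9 CPM, against at most 14.6 in the other CLP and 10.5 in the sham libraries), miR-192-5p and miR-194-5p, and the second lowest for miR-215-5p. The summed level of the hepatocyte list was 1884 to 79294 CPM in CLP and 2965 to 14631 CPM in sham, nearly all of it miR-122-5p. The part of these miRNAs in the members' values was not tested.

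Relative to miR-122-5p within each library, miR-192-5p stood at a log2 ratio of 2.08 ± 1.36 in CLP (SD, n = 9) and 2.23 ± 0.61 in sham (n = 6; difference -0.15, exact permutation p = 0.813, adjusted 0.813), and miR-194-5p at -5.92 ± 1.29 and -6.10 ± 0.69 (difference 0.17, exact permutation p = 0.760, adjusted 0.813). The ratio of miR-215-5p to miR-122-5p was -2.81 ± 2.06 in CLP and 0.06 ± 0.83 in sham, and this difference of -2.87 passed (exact permutation p = 0.00480, adjusted 0.0144), although the groups overlapped. The difference was -2.32 without CLP 1, and taken between medians it was -2.67 and missed the threshold (adjusted p = 0.0599).

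Levels of miR-192-5p, miR-194-5p, miR-215-5p and miR-122-5p were also compared across libraries within each group, in 12 relations of log2 CPM with exact permutation p-values. None passed after adjustment, and 4 had an unadjusted Pearson p under 0.05 (2 by Spearman). Among CLP libraries miR-192-5p and miR-194-5p had r = 0.79 (n = 9, exact permutation p = 0.0160, adjusted 0.0769) and rho = 0.75 (exact permutation p = 0.0255, adjusted 0.153). Without the 2 libraries farthest from the median of miR-194-5p, r was 0.74 and rho 0.50. Against miR-122-5p in CLP libraries, miR-192-5p had r = 0.68 (exact permutation p = 0.0417, adjusted 0.125; rho = 0.60, p = 0.0968, adjusted 0.387), which rested on 2 libraries: without them r was 0.15. miR-194-5p had r = 0.76 with miR-122-5p in CLP libraries (exact permutation p = 0.0192, adjusted 0.0769; rho = 0.52, p = 0.162, adjusted 0.485), which also rested on 2 libraries, with r = 0.19 without them. For miR-215-5p the r in CLP libraries was -0.21 with miR-122-5p (exact permutation p = 0.592, adjusted 0.843; rho = 0.08, p = 0.843, adjusted 0.843). In sham libraries miR-192-5p and miR-122-5p had r = 0.90 (n = 6, exact permutation p = 0.00833, adjusted 0.0769; rho = 0.94, p = 0.0167, adjusted 0.153), and r = 0.69 without 2 libraries.

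**Figure D4:**
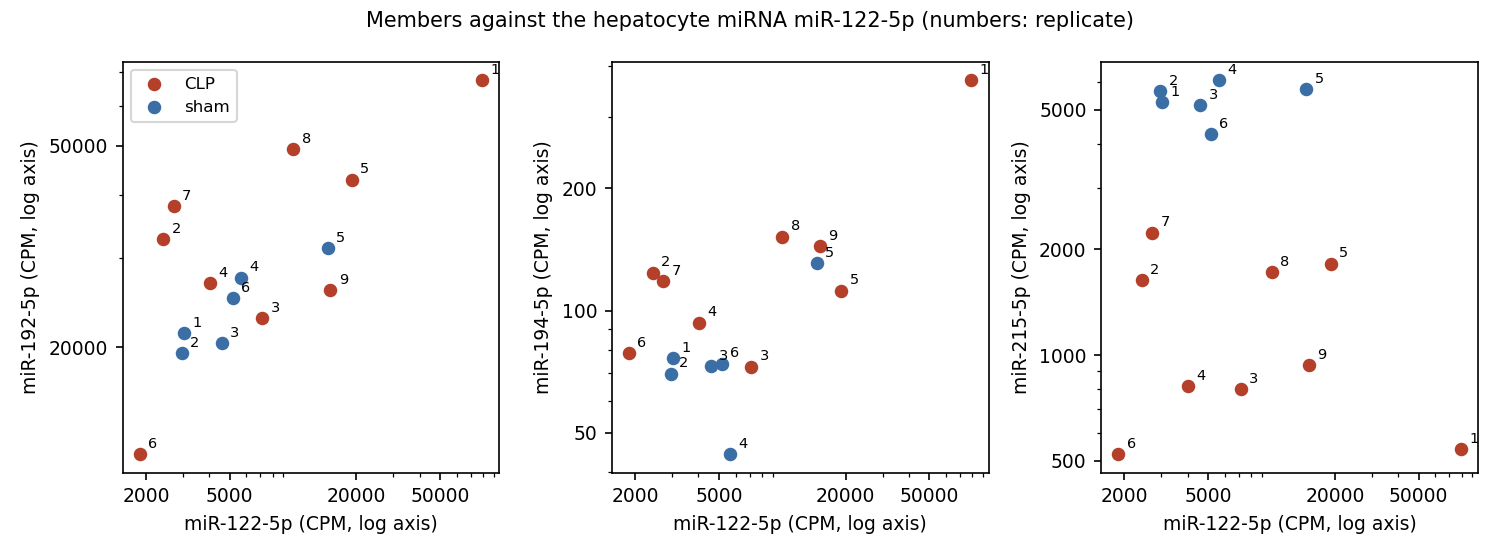
CPM of miR-192-5p, miR-194-5p and miR-215-5p against the hepatocyte miRNA miR-122-5p, on log axes, with 1 point per library, numbered by replicate, 9 CLP and 6 sham. In the miR-215-5p panel the 6 sham libraries form a band above all 9 CLP libraries, and CLP 1, with 79178 CPM of miR-122-5p, is near the bottom at 540 CPM.

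Of 7 miRNAs of intestinal and other lining epithelium, all tested, 2 rose and none fell (median log2 fold change 0.58). Among all tested miRNAs 25.4% rose and 21.8% fell, so the count that rose is near the general share. The 2 that rose were miR-200a-3p (1.04 ± 0.25, edgeR adjusted p = 0.00206) and miR-141-3p (0.79 ± 0.23, 0.00732), members of the family that holds epithelial cells in their epithelial state. The islet and gut endocrine miR-375-3p (0.67 ± 0.36, edgeR adjusted p = 0.133) and miR-200b-3p (0.16 ± 0.24, 0.615) did not pass. The call of miR-141-3p was lost after removal of a trend with GC content (0.45) and in the fit with a replicate block (0.55). The summed level of the list, most of it miR-200a-3p and miR-375-3p, was 1979 to 5382 CPM in CLP (median 3281) and 1474 to 2299 CPM in sham (median 1775). These sums overlapped, in the same libraries in which both strands of miR-215 were lower in CLP without overlap.

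Of 4 miRNAs used for kidney epithelium 2 rose and 1 fell (median 1.03), and most of their sum, 139492 to 255894 CPM in CLP and 60077 to 120029 CPM in sham, was miR-10a-5p (139472 to 255879 and 60055 to 119988 CPM). miR-204-5p, made in kidney tubules and eye, had 7.20, 9.77 and 12.9 CPM at the lowest, median and highest CLP library against 21.4, 39.9 and 56.5 CPM in sham, with no overlap (-1.88 ± 0.23, edgeR adjusted p = 3.11e-06). miR-10a-5p (1.14 ± 0.21, edgeR adjusted p = 0.000194) and miR-196a-5p (2.05 ± 0.48, 0.00195), both from Hox gene clusters, rose. miR-196a-5p was scarce, at 2.59 to 17.2 CPM in CLP and 0.385 to 4.18 CPM in sham, and the stricter filter left it out. Of 5 further miRNAs of the p53 response 3 were tested, and miR-145a-5p (1.61 ± 0.40, edgeR adjusted p = 0.00268) and miR-107-3p (1.33 ± 0.34, 0.00312) rose. Both held fractional counts in some libraries, so part of their reads may be shared with similar miRNAs. The same holds for miR-10a-5p, miR-141-3p, miR-200a-3p, miR-200b-3p, miR-200c-3p, miR-34b-5p and miR-34c-5p. It also holds for miR-23a-3p and the entry of miR-486a-5p and miR-486b-5p, which are used below. miR-34c-5p did not pass (-0.69 ± 0.39, edgeR adjusted p = 0.153, and -1.01 and 0.0186 without CLP 9). miR-34a-5p, a well-known p53 target, was too rare to test, at 47 reads in the CLP and 14 in the sham libraries. So was miR-34b-5p, at 2.5 and 1.0 counts. A p53 response was not tested.

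Red cell miRNAs were followed because haemolysis alters plasma libraries. Of 3 tested entries miR-451a fell (-1.28 ± 0.32, edgeR adjusted p = 0.00313) and none rose (median -0.70). The entry shared by miR-486a-5p and miR-486b-5p missed the threshold (-0.70 ± 0.33, edgeR adjusted p = 0.0867) but was called lower under 8 of 27 alternatives, which makes 2 of 3. Among these were limma voom (-0.85), library size scaling (-0.95) and leaving out CLP 3 (-0.86), CLP 5 (-1.05), sham 4 (-0.90) or sham 6 (-0.90). The summed level of the red cell list was 81409 to 377435 CPM in CLP and 157250 to 454408 CPM in sham. Most of it was the shared miR-486 entry (77286 to 358097 and 149653 to 430537 CPM). An index of haemolysis, the log2 ratio of the red cell miR-451a to miR-23a-3p, ran from -2.53 to 0.72 in CLP (median -1.69) and from -1.28 to 0.24 in sham (median -0.23). With the index as a covariate miR-215-5p was at -2.10 and miR-215-3p at -2.15 (edgeR adjusted p = 0.000147 and 5.22e-05), whereas miR-194-5p, at 0.85, was no longer called (0.102).

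**Figure D5:**
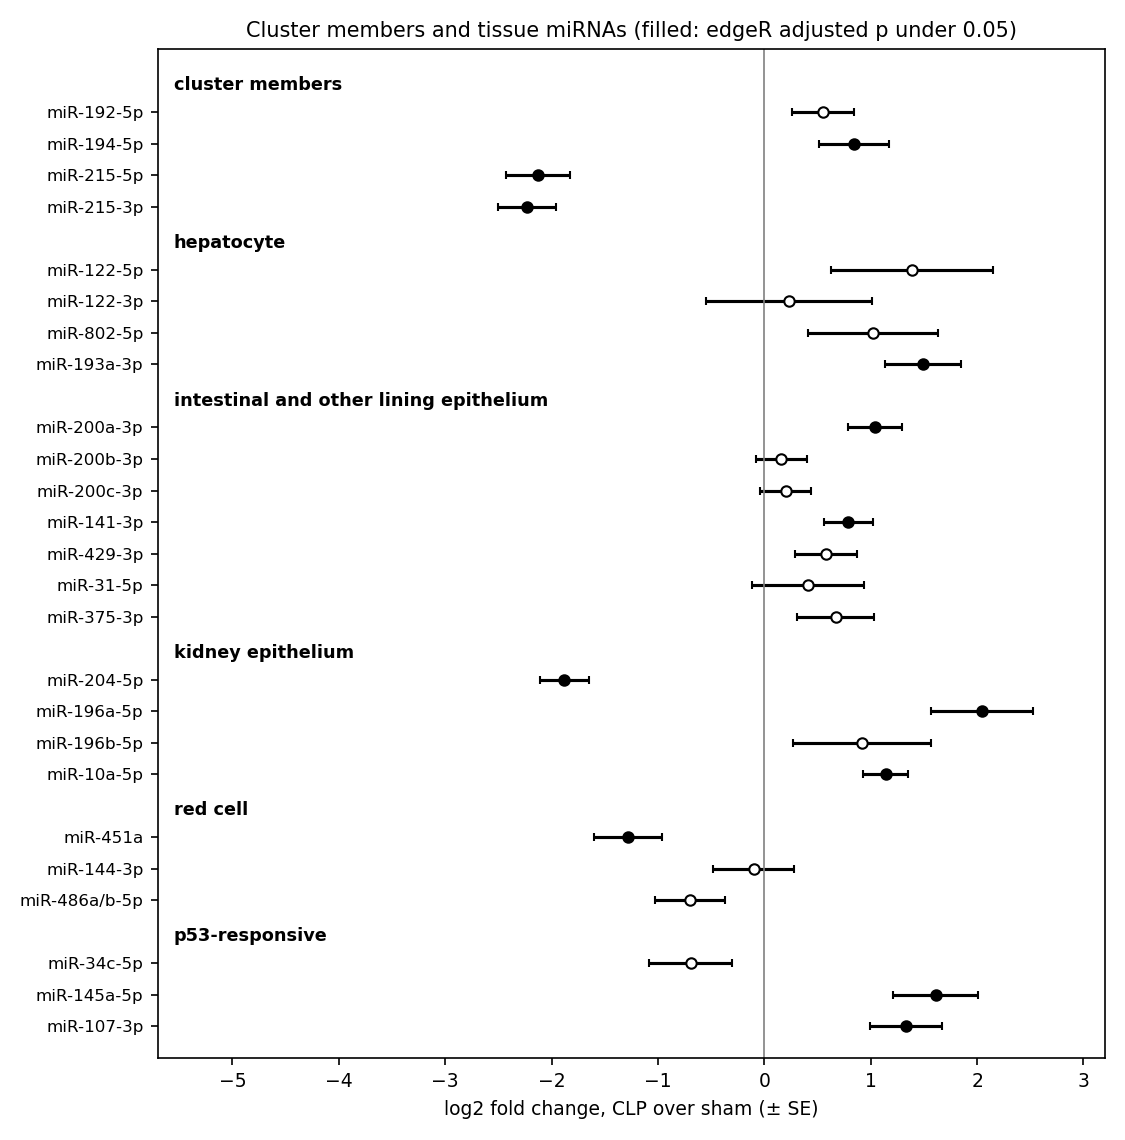
Log2 fold change, CLP over sham, ± SE from edgeR for the 4 tested members and for the tested miRNAs of the hepatocyte, epithelial, kidney, red cell and p53 lists, with filled points for an adjusted p under 0.05. The 2 strands of miR-215 lie at -2.13 and -2.23, farther to the left than any listed tissue miRNA, of which miR-204-5p at -1.88 is the nearest.

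To find miRNAs whose levels varied like those of the members beyond the group difference, each group's mean was subtracted from log2 CPM and Pearson's r was computed with the 248 other miRNAs of at least 10 CPM over the 15 libraries. These values describe libraries that share their depth and scaling, and carry no p. The closest to miR-192-5p were miR-122-5p (r = 0.70), miR-194-5p (0.70) and miR-200a-3p (0.66). CLP 1 was the highest library for miR-192-5p, miR-194-5p and miR-122-5p, so single libraries can weigh heavily in these values. Among CLP libraries alone, leaving out the 2 libraries farthest from the median of miR-122-5p took its r with miR-192-5p from 0.68 to 0.15. Leaving out the 2 farthest from the median of miR-194-5p took its r with miR-192-5p from 0.79 to 0.74, and rho from 0.75 to 0.50. The libraries left out were not the same for both pairs, so these changes cannot be set against each other. The closest to miR-194-5p were miR-101a-3p, the entry shared by miR-101a-3p and miR-101c, and miR-148a-5p (r = 0.83 each), with miR-192-5p in place 6. The closest to miR-215-5p were its own 3p strand (r = 0.89), the epithelial miR-200b-3p (0.86) and miR-196a-1-3p (0.84), whereas its seed partner miR-192-5p was in place 47 (0.38) and its cluster neighbour miR-194-5p in place 151 (-0.09). miR-215-5p spread 4.28-fold in CLP and 1.42-fold in sham, so CLP libraries weigh most here, and r within sham was not computed. Its highest and lowest sham libraries (sham 4 and sham 6, 6074 and 4273 CPM) held 95.5 and 96.9 CPM of miR-215-3p. Of miR-200b-3p they held 233 and 307 CPM.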

How the data were processed

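The deposited table holds expected counts of reads per mature miRNA in 15 library columns, not scaled for depth, which the authors made with exceRpt, a small RNA pipeline, as the deposited table's name gives. Per the submitters' processing notes, reads were handled with build mm10. Plasma RNA was extracted with Trizol LS from 100 µl and ligated to adapters with a Norgen Biotek kit, per the labels' protocols. For the aligner, allowed mismatches and miRNA release the entry is "not given in the sources used here", so how reads of miR-192-5p and miR-215-5p were told apart is not known. Each column was mapped to 1 library by its label.

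Counts were rounded and tested with edgeR 4.0.16 in R 4.3.3 (filterByExpr, TMM, robust quasi-likelihood F test, no covariate, Benjamini-Hochberg adjustment over 426 miRNAs, threshold 0.05), which kept at least 99.97% of each library. Standard errors were taken from the fold change and its F statistic. Arm ratios used limma 3.58.1 (trend and robust). Ratios used a pseudocount of 0.5 counts, and exact permutations were run in Python 3.11.15. Alternatives included DESeq2 1.42.0 and limma voom. The fits were also run on simulated counts that gave every miRNA and both groups the same dispersion. The tested members spread more widely in CLP than in sham libraries, so that run does not check the fits under such unequal spread. Mature sequences came from RefSeq.

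The members and lists were chosen with earlier results of these data known. miRNAs named were the members, the other arms of their hairpins, the lists, for each 5p member the 3 miRNAs most like it, and miR-23a-3p as the denominator of the haemolysis index. No library was left out.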

Additional observations from a re-analysis of the deposited data

Results flagged for a closer look

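In 68 groups of log2 values (named tested miRNAs and ratios, in CLP and in sham), 8 held a library whose gap to its nearest neighbour was large for the group's range by Dixon's test at the 95% level, which chance alone gives in about 5% of groups. The groups reuse the same libraries and miRNAs and are not independent, so the 8 cannot show an excess over that share.

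CLP 1 stood apart from the other 8 CLP libraries in miR-194-5p, at 8.53 log2 CPM against 6.19 to 7.25. It also stood apart in the ratio of miR-192-5p to miR-215-5p, at a log2 ratio of 6.96 against 4.09 to 5.04, and in that of miR-215-5p to miR-194-5p, at 0.55 against 2.70 to 4.24. Sham 1 was high in miR-215-3p, at 6.93 log2 CPM against 6.42 to 6.60 in the other sham libraries, and low in the ratio of miR-192-3p to miR-215-3p, at -10.78 against -6.99 to -5.18, where its count of miR-192-3p was 0. Sham 4 was high in the ratio of miR-192-5p to miR-194-5p, at 9.27 against 7.90 to 8.40. Among the list miRNAs, CLP 5 was low in miR-145a-5p, at 10.47 log2 CPM against 12 to 12.84, and CLP 8 was low in the scarce miR-31-5p, at -2.03 against 0.05 to 1.67, with 0 reads.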

How the results depend on the processing

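The falls of miR-215-5p and miR-215-3p passed under each of their 27 alternatives, and miR-192-5p under none. In leave-one-out fits the number of changed miRNAs ran from 184 to 213 and the log2 fold change from -2.38 to -2.07 for miR-215-5p, -2.43 to -2.17 for miR-215-3p, 0.34 to 0.65 for miR-192-5p and 0.49 to 1.08 for miR-194-5p. Without the abundance filter 307 miRNAs were called. The call of miR-194-5p (0.84) was lost with limma voom (0.61), DESeq2 size factors (0.81), library size scaling (0.60), a stricter filter (0.70), CLP 1 and 5 left out (0.51), replicates 1 to 6 alone (0.79), the haemolysis covariate (0.85) and, chosen after seeing the data, a GC trend removed (0.56, available for 87.6% of tested miRNAs). The cause was not tested.

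Same-numbered CLP and sham libraries did not deviate together over all tested miRNAs (r from -0.151 to -0.0314 over 6 numbers). The labels do not say what the numbers stand for, and these r values cannot show whether same-numbered libraries share more than a label. With the replicate block miR-194-5p was at 0.59 and not called, miR-215-5p at -2.62 and miR-215-3p at -2.53, both called. In the block of ratios, differences of 2.88 (miR-192-5p/miR-215-5p), -3.23 (miR-215-5p/miR-194-5p) and -3.14 (miR-215-5p/miR-122-5p) did not pass after adjustment (0.0938 each), where 6 pairs allow no exact p under 0.0312. The miR-215 arm ratio turned to -0.08 with the block, alone and in the fit of all hairpins.

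Differences in medians gave -2.67 for miR-215-5p/miR-122-5p, no longer passing, and turned the sign of uncalled ratios: 0.04 for miR-192-5p/miR-194-5p, -0.03 for miR-215-5p/miR-215-3p and 0.02 for miR-192-5p/miR-122-5p, which was 0.31 with CLP 1 and 5 left out. With a pseudocount of 5, miR-192-5p/miR-192-3p (1.10) and miR-192-3p/miR-215-3p (1.65) passed. Leave-one-out ranges were 1.27 to 2.33 for miR-192-5p/miR-192-3p, 0.36 to 1.48 for miR-192-3p/miR-215-3p, -0.01 to 0.14 for the miR-215 arms, -0.37 to 0.14 for miR-192-5p/miR-122-5p and -0.03 to 0.40 for miR-194-5p/miR-122-5p. With both arms at 10 CPM or more, 25 of 43 hairpins changed their arm ratio. In sham libraries r of miR-194-5p with miR-215-5p was 0.06 by library size and 0.59 without 2 libraries, and with miR-122-5p -0.61 without 2 libraries.

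Uncalled list miRNAs also changed sign. miR-122-3p was at -1.14 (voom), -0.02 (library size), -1.16 (CLP 1 and 5 left out), -0.63 (block) and -0.91 to 0.76 leaving out 1 library. miR-144-3p was at 0.01 (replicates 1 to 6), 0.04 (block), 0.25 (haemolysis covariate) and -0.43 to 0.17. miR-200b-3p was at -0.06 (library size), -0.09 (replicates 1 to 6), -0.17 (block), -0.28 (GC) and -0.02 to 0.22, and miR-200c-3p at -0.03 (library size) and -0.11 (GC). Depth limits miR-192-3p and the miR-194 3p strands, with 0 to 17 reads a library.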
